A study of Mus musculus with 3 samples.

Results

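Bcl6, Socs2, Cish, Ghr, Prlr, Stat5a, Stat5b and Igf1 are 8 of the 27998 mouse genes counted in a single-cell RNA sequencing (scRNA-seq) study of injured kidney, and together they form much of the growth hormone STAT5 axis. They were selected on the measured level of Bcl6, which in proximal tubular epithelial cells (PTECs) was lower in both Aoah-/- libraries than in the WT library. The question was whether the receptors, the STAT5 genes and their targets moved with it. The PTEC difference of Bcl6 is therefore a description and supports nothing by itself. All 8 genes were found by symbol, and 7 of them passed the filter on low values in PTECs, the exception being Igf1.

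The libraries were made from kidneys of 3 mice, namely Aoah-/- replicate 2, Aoah-/- replicate 3 and WT replicate 3, on day 14 of the folic acid (FA) model. All 3 mice received FA, which injures the renal tubules, and the labels give an age of 6 to 8 weeks. Aoah encodes acyloxyacyl hydrolase, an enzyme that removes fatty acyl chains from bacterial lipopolysaccharide. Per the study's methods, the Aoah-/- mice carried a mutated Aoah gene in all tissues, backcrossed to C57/BL6J mice, and the WT controls were littermates of the same age and sex bred from Aoah heterozygotes. No mouse without FA was analysed here. With 1 WT library no test across mice could be made, so no p-value is given, both Aoah-/- libraries are set against the same WT library, and intervals cover counting error only.

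Growth hormone binds its receptor GHR, the receptor activates the kinase JAK2, and JAK2 phosphorylates the transcription factors STAT5A and STAT5B, which move to the nucleus. The prolactin receptor PRLR uses the same kinase and the same STATs. Among the genes that STAT5 induces are Cish and Socs2, whose proteins dampen cytokine receptor signalling, and, in liver above all, Igf1, the circulating mediator of growth. BCL6 is a transcriptional repressor best known from germinal centre B cells. In liver, growth hormone lowers Bcl6 through STAT5, and BCL6 can occupy DNA sites that overlap those of STAT5. In the kidney, GHR is made in the proximal tubule. RNA levels alone were measured here, not phosphorylated STAT5 or any protein.

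STAT5 binds palindromes of the form TTCNNNGAA. This motif was searched for in promoter windows from RefSeq (GRCm38.p6), each from 250 bases before to 50 bases after a transcription start. Since the motif is its own reverse complement, a single pass covers both strands. Of 32851 windows, 8.3% held at least 1 match, 0.457% at least 2 and 0.0335% at least 3. A window was found for 7 of the 8 genes, the exception being Socs2. The windows of Ghr, Stat5a, Stat5b and Igf1 held no match. The shares above are per window, and Bcl6 had 2 windows, Cish 1 and Prlr 3. All stretches with a match are shown, from windows of Bcl6, Cish and Prlr. They are printed 5′ to 3′ on the strand of the gene, with the matches in capitals, and a match is a letter pattern, not a measured binding site.
Bcl6, alternative start, chr16:23981363-23981451, minus strand: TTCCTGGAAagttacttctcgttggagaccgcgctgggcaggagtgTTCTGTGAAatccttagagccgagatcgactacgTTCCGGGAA
Bcl6, first start, chr16:23988952-23988981, minus strand: tagcaaattagTTCTCAGAAttccagaggc
Cish, chr9:107296654-107296683, plus strand: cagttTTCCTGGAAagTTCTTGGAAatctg
Prlr, 1 of 3 starts, chr15:10223785-10223814, plus strand: ggcaaaatgagTTCTAGGAAtaagggatat
The alternative start of Bcl6 lies in the first intron of an annotated Bcl6 transcript, and its 3 matches begin 168, 122 and 88 bases before that start. The first start of Bcl6 had 1 match, 118 bases before it. In Cish the 2 matches began at bases 1 and 12 of the RefSeq transcript, and in Prlr the match began 110 bases before the start. The Cish window searched, chr9:107296409-107296708, does not hold the start of the gene in the GENCODE annotation, at 107296026.

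Each library held between 23072 and 25516 barcodes and between 158551992 and 167222984 unique molecular identifiers (UMIs), each of which marks 1 captured RNA molecule. After removal of barcodes with fewer than 200 genes or over 50% mitochondrial UMIs, 21368 Aoah-/- 2, 19692 Aoah-/- 3 and 18202 WT cells were left. Pairs of libraries shared between 171 and 176 barcodes. Clusters were named from marker genes, without use of the 8 genes. PTEC-like cells were named by a score over proximal markers, among them Slc34a1 and Lrp2. They numbered 8088 in Aoah-/- 2, 4859 in Aoah-/- 3 and 9346 in WT 3, with a median of 3062.5, 6136 and 4830 UMIs per cell. Levels are UMIs summed over the cells of a class in a library, scaled to counts per 1000000 UMIs of that class (CPM). Values from 3 libraries are given in the order Aoah-/- 2, Aoah-/- 3 and WT 3 throughout. The 3′ UMIs of Aoah itself in PTEC-like cells were 13.2, 12.4 and 26.5 CPM. The position of the mutation relative to the captured 3′ ends is not given in the sources used here, so these UMIs check the genotype only in part.

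In PTEC-like cells the repressor Bcl6 was lower, and the STAT5 targets Cish and Socs2 were higher, in both Aoah-/- libraries than in WT, while the growth hormone receptor and both STAT5 genes were near the WT level. Bcl6 (chr16:23965052-23988852, GRCm38) stood at 7.14 CPM (95% interval 6.45 to 7.89, 391 UMIs), 28.4 CPM (26.9 to 29.9, 1374 UMIs) and 75.9 CPM (73.9 to 77.9, 5528 UMIs). The WT level was 10.6-fold that of Aoah-/- 2 and 2.67-fold that of Aoah-/- 3, and the 2 Aoah-/- libraries lay 3.98-fold apart. The spread between the Aoah-/- mice was thus wider than the distance from WT to the nearer of them. The log2 ratio of the mean Aoah-/- level to WT, with 1 CPM added to each, was -2.03 (SD of the 2 libraries 1.31).

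Cish (chr9:107296026-107302784), which encodes a feedback inhibitor of cytokine receptors, showed the reverse order, with 60.9 CPM (58.9 to 63.0, 3335 UMIs), 14.7 CPM (13.7 to 15.9, 713 UMIs) and 2.37 CPM (2.0 to 2.8, 173 UMIs). Aoah-/- 2 was 25.7-fold and Aoah-/- 3 6.21-fold above WT, and no 2 libraries overlapped in their counting intervals. Socs2 (chr10:95385362-95417180), which encodes an adaptor that marks GHR for degradation, followed the same order at 57.2 CPM (55.2 to 59.2, 3131 UMIs), 15.2 CPM (14.2 to 16.4, 737 UMIs) and 10.8 CPM (10.0 to 11.6, 786 UMIs). Aoah-/- 3 was 1.41-fold above WT in Socs2, short of the 1.5-fold used below to call a gene. With a limit of 20% mitochondrial UMIs Socs2 was at 82.8, 23.5 and 13.1 CPM and would be called higher. Without the PTECs led by Dusp1 and Jun, described below, it was at 42.9, 9.66 and 10.4 CPM, with Aoah-/- 3 just under WT. The gap between the 2 Aoah-/- libraries was 4.13-fold for Cish and 3.76-fold for Socs2, close in size to that of Bcl6 and opposite in sign. The mouse with the lowest Bcl6 had the highest Cish and Socs2, and the WT mouse had the highest Bcl6 and the lowest of both targets. With 3 mice this order is a description.

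Ghr, Stat5a and Stat5b differed far less from WT than Bcl6 and Cish did, whereas Prlr was above WT in both Aoah-/- libraries. Ghr (chr15:3317760-3583492) was at 256, 283 and 289 CPM, from 14027, 13711 and 21066 UMIs, so that the WT level was 1.13-fold that of Aoah-/- 2 and 1.02-fold that of Aoah-/- 3. Prlr (chr15:10177238-10349180) was low, at 8.62 CPM (7.86 to 9.44), 8.33 CPM (7.54 to 9.18) and 3.71 CPM (3.3 to 4.2), from 472, 403 and 270 UMIs. The 2 Aoah-/- libraries agreed in Prlr within 1.04-fold and were 2.33-fold and 2.25-fold above WT, so Prlr did not show the spread between the Aoah-/- mice that Bcl6, Cish and Socs2 had. Stat5a (chr11:100859351-100885169) was at 6.91, 7.94 and 7.38 CPM, and Stat5b (chr11:100780731-100850724), the form on which growth hormone mainly acts in liver, was at 13.5, 15.7 and 13.7 CPM. The mean Aoah-/- level differed from WT by a log2 ratio of 0.01 (SD 0.12) for Stat5a and 0.09 (SD 0.14) for Stat5b. Igf1 (chr10:87858265-87937042) was near the limit of detection, with 23, 27 and 27 UMIs, or 0.42, 0.56 and 0.37 CPM.

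**Figure D1:**
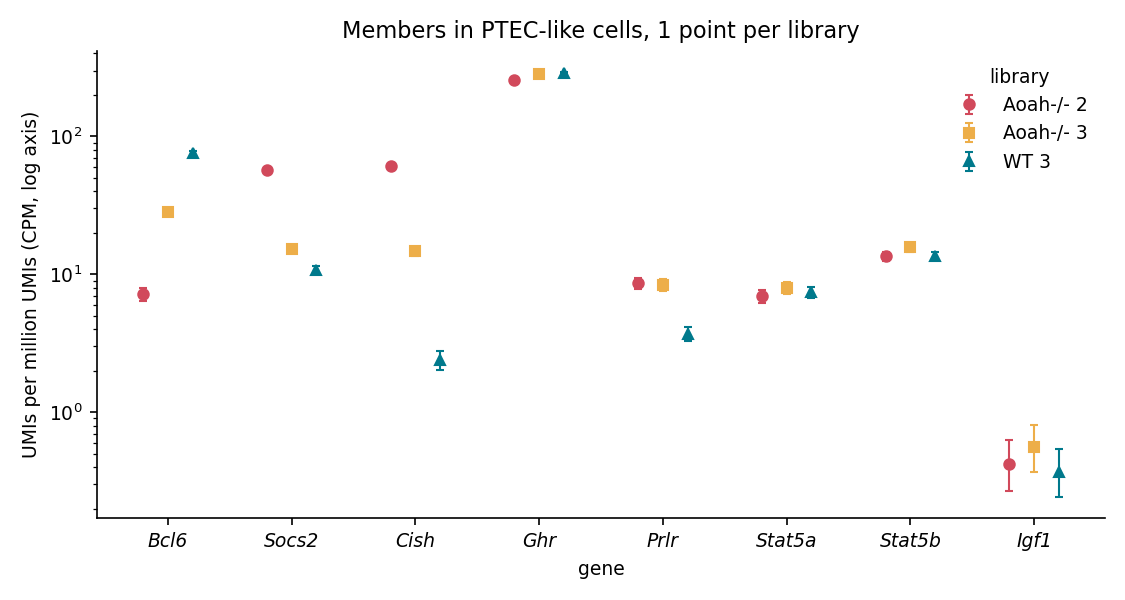
Levels of the 8 genes in PTEC-like cells of each library, in CPM on a log axis, with bars for exact Poisson 95% intervals that cover counting error only. Bcl6 falls from 75.9 CPM in WT 3 to 7.14 CPM in Aoah-/- 2, Cish and Socs2 run the opposite way, and Ghr, Stat5a and Stat5b lie close together in the 3 libraries.

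A gene was called lower or higher where both Aoah-/- libraries lay at least 1.5-fold on the same side of WT. For this rule 1 CPM was added to each level, whereas the folds printed in the text are without it. Of the 7 genes compared in PTEC-like cells, Bcl6 was called lower and Cish and Prlr higher, against 0.724% of all 8842 compared genes called lower and 2.41% called higher. Since this contrast chose the genes, nothing is read from these counts. By log2 ratio Bcl6 ranked 1st from the bottom of the 8842 genes, Cish 1st, Socs2 17th and Prlr 75th from the top. The median log2 ratio over all genes was -0.03.

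PTEC-like cells were clustered again to see whether a shift between kinds of PTEC moved with these levels. Of 9 subclusters, 6 held at least 100 cells in each library, and of these only that led by Slc5a2, the glucose transporter of the early proximal tubule, could be named by segment, as S1/S2-like. In the 6 subclusters Bcl6 ranged from 1.55 to 19.3 CPM in Aoah-/- 2, from 16.6 to 38.8 CPM in Aoah-/- 3 and from 32.7 to 106 CPM in WT 3. Both Aoah-/- libraries were below WT in all 6, and Bcl6 was called lower in 5. The share of all genes called lower was 0.428% in the subcluster led by Dusp1 and Jun, 2.71% in that led by Cxcl1 and Egr1, 2.34% in that led by Erdr1 and Malat1, 0.503% in that led by Cyb5a and Etfb, 0.626% in S1/S2-like cells and 0.899% in that led by Hbb-bs. In S1/S2-like cells Bcl6 was at 1.55 CPM (27 UMIs), 16.6 CPM (248 UMIs) and 32.7 CPM (287 UMIs), the lowest of the 6 in each library. Among the 6, it was highest in each library in the subcluster led by the immediate early genes Dusp1 and Jun, at 19.3, 38.8 and 106 CPM. The subcluster without a call was led by the haemoglobin gene Hbb-bs, where Aoah-/- 3 at 32.8 CPM lay close to WT at 44.4 CPM. It was the shallowest of the 6 in each library, with a median of 949, 2436 and 965.5 UMIs per cell.

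Cish was above WT in both Aoah-/- libraries in each of the 6 subclusters and was called higher in 5, the exception again being that led by Hbb-bs. Its levels ran from 44.8 to 91.7 CPM in Aoah-/- 2, from 4.92 to 31.3 CPM in Aoah-/- 3 and from 1.04 to 4 CPM in WT 3, so Aoah-/- 2 did not overlap with the other libraries. Beside these counts, the share of all genes called higher was 3.29%, 3.4%, 1.34%, 2.38%, 2.24% and 4.43% in the 6, in the order just given. Socs2 was less even. It was called higher in 2 of the 6, the S1/S2-like cells with 29.3, 5.96 and 3.19 CPM and the subcluster led by Dusp1 and Jun with 97.3, 31.0 and 11.5 CPM. In the subcluster led by Cyb5a and Etfb, Aoah-/- 3 at 10.0 CPM was below WT at 13.8 CPM, and the same held in that led by Hbb-bs, at 3.82 and 9.48 CPM. The Socs2 difference in Aoah-/- 3 thus had no single direction over the kinds of PTEC, whereas that in Aoah-/- 2 did. Ghr, between 139 and 397 CPM over all 6, was called in none. Prlr passed the filter in 2 of the 6 and was called higher in 1. That was the S1/S2-like cells, at 12.8, 11.4 and 7.07 CPM, or 1.81-fold and 1.61-fold above WT. In the subcluster led by Dusp1 and Jun Prlr was at 7.77, 7.19 and 4.64 CPM, or 1.67-fold and 1.55-fold above WT. With 1 CPM added to each level, as in the call rule, Aoah-/- 3 fell short of 1.5-fold there, so no call was made. In both subclusters, the ratio was smaller than over all PTEC-like cells, to which S1/S2-like cells gave 1624, 1219 and 948 cells. Below the filter, the subcluster led by Cyb5a and Etfb had 4.58, 5.50 and 1.17 CPM, a larger ratio. The ratio was also larger in that led by Hbb-bs, at 5.99, 6.01 and 2.31 CPM. That led by Cxcl1 and Egr1 had 7.48, 5.43 and 0 CPM, from 18, 19 and 0 UMIs. That led by Erdr1 and Malat1 had 4.10, 3.98 and 2.65 CPM, a smaller ratio. S3-like cells, of the late proximal segment, numbered 12, 12 and 29, and held 0, 8 and 20 Bcl6 UMIs.

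**Figure D2:**
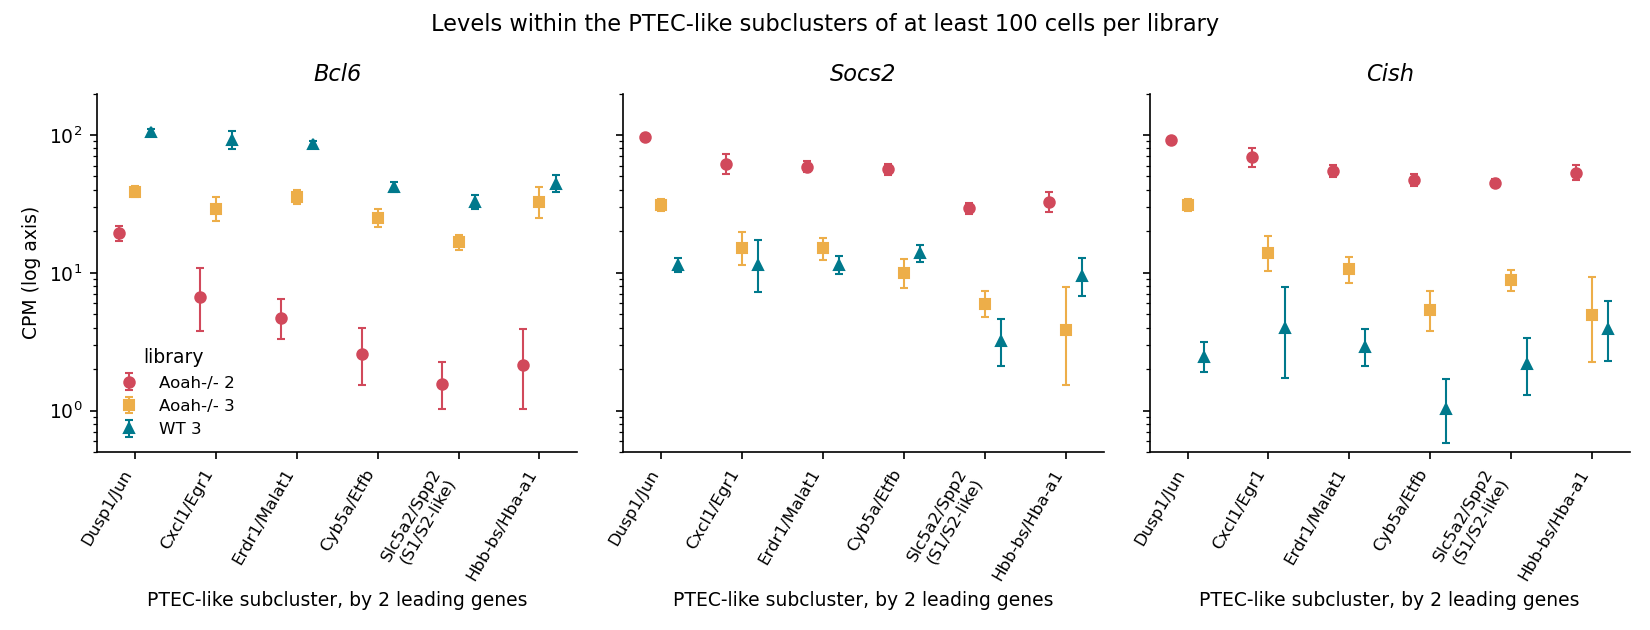
Bcl6, Socs2 and Cish in the 6 subclusters of PTEC-like cells with at least 100 cells per library, in CPM on a log axis, with exact Poisson 95% intervals. WT 3 has the highest Bcl6 and the lowest Cish in each subcluster, and Socs2 of Aoah-/- 3 lies on both sides of WT 3.

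The levels were also read as shares of cells. With each cell thinned to 1000 UMIs, which left out 1932, 0 and 1806 shallower cells, Bcl6 was found in 0.585% (Clopper-Pearson 95% interval 0.410 to 0.809), 2.57% (2.15 to 3.06) and 6.26% (5.72 to 6.83) of PTEC-like cells. Without thinning the shares were 3.64%, 20.2% and 31.0%. Cish was found in 5.62% (5.06 to 6.23), 1.58% (1.25 to 1.98) and 0.186% (0.102 to 0.311) of thinned cells, and in 26.5%, 11.5% and 1.75% of whole cells. Ghr shares stood at 20.6%, 21.9% and 21.3% after thinning, close together in the 3 libraries. In T lymphocyte-like cells, taken as a class with little Ghr of its own, thinned shares of Ghr were 1.93%, 2.72% and 1.25%, at a median of 2591, 2991 and 3014.5 UMIs per cell, and give the scale of free RNA.

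Bcl6 was also read within each library in PTEC-like cells with and without a Cish UMI, the former being the deeper cells. In Aoah-/- 2 the 2144 PTEC-like cells with a Cish UMI held 7.12 CPM of Bcl6 (6.18 to 8.15) and the 5944 without one held 7.17 CPM (6.17 to 8.29). In Aoah-/- 3 the levels were 31.2 CPM (27.7 to 35.1) with Cish and 27.7 CPM (26.1 to 29.4) without, and in WT 3 they were 81.3 CPM (70.8 to 92.9) and 75.7 CPM (73.6 to 77.7). These pairs of intervals overlapped in each library. In the subcluster led by Dusp1 and Jun of Aoah-/- 2, cells with Cish were lower, at 16.6 CPM (14.1 to 19.5) against 24.2 CPM (20.1 to 28.8). That was the only one of 6 such pairs whose intervals did not overlap, and the same subcluster had 42.0 CPM with and 37.3 CPM without Cish in Aoah-/- 3. In S1/S2-like cells the levels with and without Cish were 1.68 and 1.39 CPM in Aoah-/- 2, 15.3 and 16.9 CPM in Aoah-/- 3 and 43.7 and 32.2 CPM in WT 3. Socs2 was higher in cells with Cish over all PTEC-like cells of the Aoah-/- libraries, with 61.8 CPM (58.9 to 64.7) against 52.0 CPM (49.2 to 54.8) in Aoah-/- 2 and 22 CPM (19.1 to 25.2) against 13.6 CPM (12.5 to 14.9) in Aoah-/- 3. In WT 3 the intervals overlapped, at 14.7 CPM (10.49 to 20.2) against 10.6 CPM (9.89 to 11.4). They overlapped in each library too within the subcluster led by Dusp1 and Jun and within S1/S2-like cells, the 2 kinds of PTEC read in this way, so the Socs2 difference was not detectable within a kind of PTEC. Ghr was higher in cells with Cish in all 3 libraries, at 271 against 239 CPM, 302 against 279 CPM and 326 against 288 CPM. None of these pairs of intervals overlapped. The same held in the subcluster led by Dusp1 and Jun for Aoah-/- 2 (275 against 229 CPM) and Aoah-/- 3 (326 against 279 CPM). In WT 3 there (308 against 310 CPM), and in S1/S2-like cells of each library, the Ghr intervals overlapped. Cells of 1 library share their mouse, so these values describe each library. The inverse order of Bcl6 and Cish between the libraries was not detectable between all cells of a library.

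The other genes of the pathway were read in PTEC-like cells from 14 lists. The shares to set beside the counts of all lists are those over all genes compared in these cells, 2.41% called higher and 0.724% lower. Of the GH and prolactin signal transducers 10 of 11 genes were compared, and 4 were called higher and 0 lower, with a median log2 ratio of 0.21. Irs2, an adaptor of the insulin and IGF receptors, was at 39.9, 33.1 and 14.2 CPM. Stat3, a STAT activated mainly by the interleukin 6 family, was at 36.4, 31.4 and 18.0 CPM. In both genes the Aoah-/- libraries were nearer to each other than to WT. The inhibitory receptor gene Sirpa stood at 39.6, 40.5 and 22.9 CPM. Jak2, the kinase of GHR and PRLR, was not called, at 12, 11.6 and 10.2 CPM.

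Of the inhibitors of JAK-STAT signalling 10 of 13 were compared, and 1 was called higher and 0 lower (median 0.02). This was Socs3, which acts mainly on receptors that use STAT3, at 10.2, 8.16 and 2.44 CPM. In the IGF system 1 of 8 compared genes was called, Igfbp1, an IGF-binding protein, which was higher at 23.8, 16.0 and 5.27 CPM. Of 10 other STAT5 targets 1 was called higher, the stress gene Gadd45g at 200.1, 202 and 122 CPM, with a list median of 0.17. Gadd45g was about level in the 2 Aoah-/- libraries. Of the other receptors that signal through STAT5, 1 of 12 passed the filter, the interleukin 15 receptor gene Il15ra at 8.81, 9.86 and 9.24 CPM.

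None of the 8 compared corepressors and partners of BCL6, and none of the 4 compared genes known as BCL6 targets, was called in either direction, with medians of -0.06 and 0.02. Ncor1, a corepressor, had 197, 203 and 214 CPM, and the cell cycle inhibitor Cdkn1b had 23.3, 24.8 and 23.9 CPM. Of the 13 BCL6 target genes listed, most were below the filter in PTEC-like cells. Of the FOXO list 1 of 7 was called higher (median 0.34), Txnip, which restrains glucose uptake, at 97.3, 74.1 and 43.6 CPM. Of 10 glucocorticoid genes 1 was called lower and 2 higher (median -0.07). Sgk1, a kinase that raises sodium transport, was at 54.0, 44.8 and 101.5 CPM. Pck1, the gluconeogenic enzyme, was at 2254, 1665 and 1017 CPM, and Zfp36, which destabilises inflammatory mRNAs, at 152, 166 and 90.2 CPM.

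Several lists mark the state or the mix of the cells rather than the axis. None of the 12 compared circadian clock genes was called (median -0.06), and Hlf, a clock output factor, stood at 94.9, 98.5 and 94.6 CPM. Other clock genes, named after their values were seen, were lowest in Aoah-/- 3, among them Dbp at 22.1, 7.67 and 17.1 CPM, Nr1d1 at 91.2, 50.4 and 82.3 CPM and Bhlhe40 at 77.2, 45.1 and 75.9 CPM. The part of the clock in the member levels was not tested. Growth hormone action in liver differs between the sexes, and the labels do not give the sex of these mice. The paper's main figure legends for its other FA experiments name male mice, while that of the scRNA-seq does not give the sex. All 3 libraries held UMIs of the Y-linked genes Ddx3y (51.5, 49.7 and 56.5 CPM), Eif2s3y (31.4, 33.0 and 36.5 CPM), Uty (21.0, 22 and 19.5 CPM) and Kdm5d (10.8, 12.3 and 11.3 CPM), while Xist was at 0.18, 0.17 and 0.37 CPM. Of 10 androgen-dependent or sex-biased kidney genes none was called (median -0.15), and Kap, the androgen-regulated kidney protein, was at 35523, 46107 and 45489 CPM. The 6 PTEC injury markers summed to 29.1, 31.4 and 16.3 CPM, with 1 of 6 compared and none called, that 1 being Clu at 12.9, 15.7 and 11.4 CPM. Those below the filter were named after their values were seen. Vcam1 at 7.36, 5.85 and 1.74 CPM, Sox9 at 4.55, 4.13 and 0.95 CPM and Lcn2 at 3.23, 4.17 and 1.24 CPM were past 1.5-fold above WT in both Aoah-/- libraries. Havcr1 at 0.86, 1.41 and 0.80 CPM and Krt20 at 0.20, 0.19 and 0.18 CPM were not. The 6 pan-leukocyte genes summed to 52.2, 62.7 and 29.4 CPM, with 2 of 4 called higher, Laptm5 at 9.65, 6.26 and 3.23 CPM and Tyrobp at 14.1, 14.0 and 6.35 CPM. Injury and leukocyte markers were thus above WT in both Aoah-/- libraries, and their part in the member levels was not tested for injury. Without the cells that held a leukocyte UMI, the log2 ratio of Bcl6 was -2.0 and that of Cish 3.57.

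**Figure D3:**
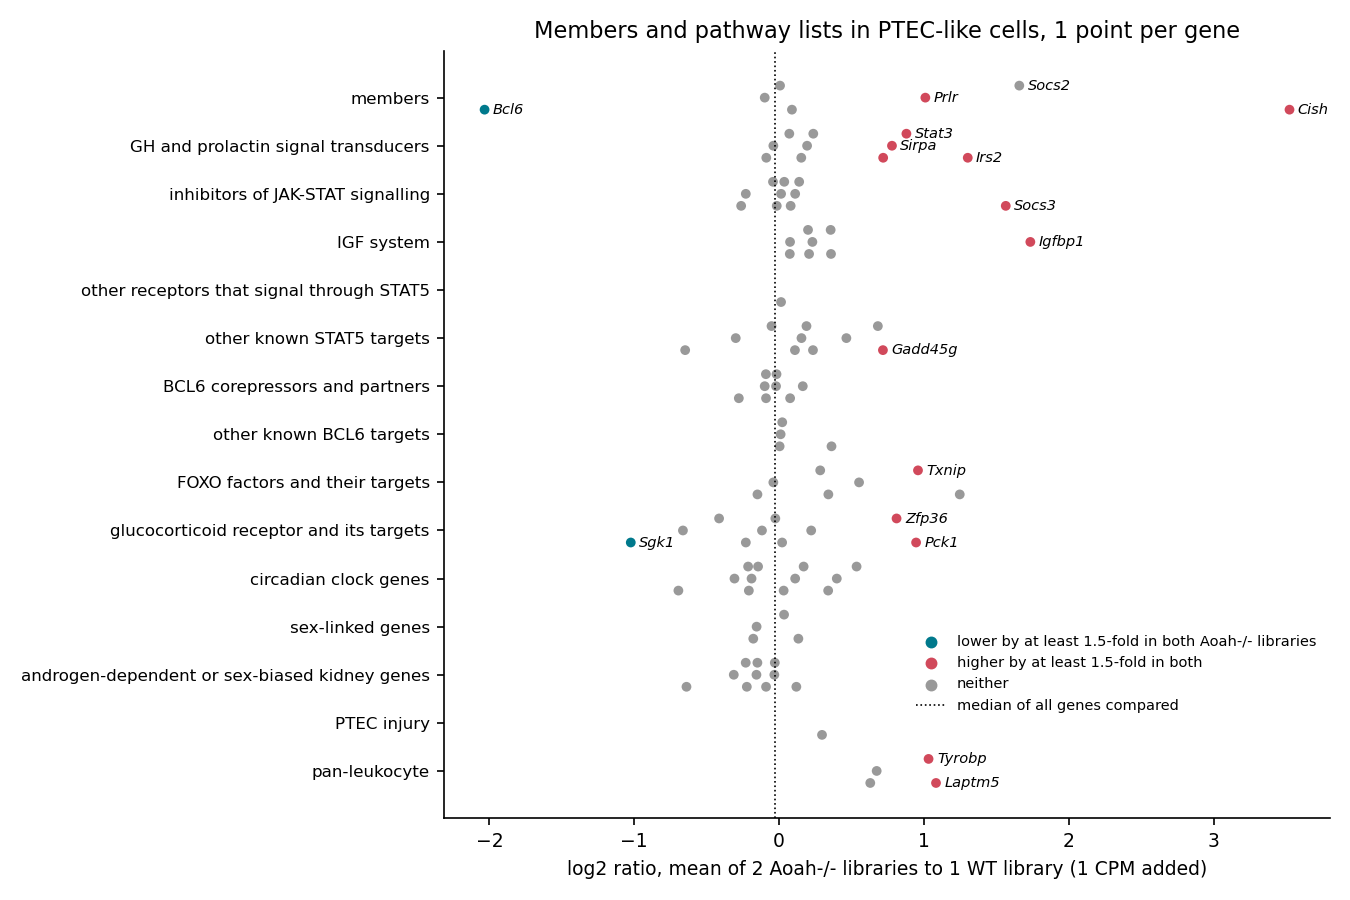
Log2 ratio of the mean Aoah-/- level to WT (1 CPM added) in PTEC-like cells, 1 point for each compared gene of the 8 members and of 14 lists, coloured by call, with up to 3 called genes of each list named by size and Socs2 named besides. Bcl6 and Cish lie at the 2 ends of the plot at -2.03 and 3.52, and the dotted line marks the median of all genes at -0.03.

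The other cell classes were then read for the same genes. Besides PTEC-like cells, 14 classes had at least 100 cells in each library. Bcl6 was called lower in 8 of them and higher in none, and both Aoah-/- libraries were below WT in each except dendritic-like cells. The share of all genes called lower ran from 0.41% to 3.36% over the classes. In ascending limb-like cells Bcl6 was at 7.63, 13.9 and 29.3 CPM, where 2.49% of genes were called lower. In distal convoluted tubule-like cells it was at 1.78, 6.97 and 20.6 CPM (9, 49 and 83 UMIs; 0.854% called lower), and in intercalated-like cells at 9.36, 8.79 and 23.4 CPM (58, 61 and 104 UMIs; 0.844%). In the distal tubule the 2 Aoah-/- libraries stood in the same order as in PTECs, and in intercalated cells they were level.

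Lymphocytes, in which BCL6 is best known, gave calls as well. In T lymphocyte-like cells Bcl6 was at 14.1, 19.5 and 36.3 CPM (0.868% of genes called lower), and in B lymphocyte-like cells at 14.7, 22.7 and 48.5 CPM (3.36%). In natural killer-like cells the levels of 8.74, 8.58 and 40.2 CPM rested on 5, 5 and 26 UMIs (3.24%). In each of these the WT library was highest by a wide margin. The T cells were not uniform. The cluster led by Ccl5 and Cd8a had 12, 18.9 and 46.4 CPM, whereas the cluster led by Icos, a helper T cell receptor, had 20.8, 20.8 and 24.1 CPM. The former also held more RNA of PTEC markers, with a mean log2 fold over the median of the clusters of 0.84 against -0.66. The part of this RNA in the contrast of the clusters was not tested. Urothelial-like cells, at 21.8, 22.3 and 41.1 CPM (2.89%), and erythroid-like cells, at 5.15, 21.6 and 44.2 CPM (0.693%), were the remaining classes with a call.

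No call was made in the myeloid classes. Bcl6 was at 31.9, 53.0 and 56.7 CPM in macrophage-like, 42.8, 40.8 and 59.8 CPM in granulocyte-like (3.14% of genes called lower) and 37.8, 43.5 and 39.1 CPM in dendritic-like cells. In dendritic-like cells Aoah-/- 3 was above WT and Aoah-/- 2 just under it. The macrophage-like class was made up of clusters in different proportions in each library. That led by C1q genes and Ccl4 had 34.7, 43.7 and 60.03 CPM, and that led by Lyz2 and Cybb 63.9, 84.3 and 95.4 CPM. The cluster led by C1q and MHC class II genes, with 846, 168 and 1093 cells, had 7.14, 39.8 and 17.6 CPM. These levels rested on 6, 21 and 20 UMIs. Aoah-/- 3 was above WT there, with overlapping intervals (24.6 to 60.8 and 10.7 to 27.1). That led by Saa3 and Fn1, with 1403, 17 and 78 cells, had 25.7, 29.1 and 13.9 CPM from 234, 3 and 9 UMIs. The WT interval there (6.4 to 26.4) overlapped with those of Aoah-/- 2 (22.5 to 29.2) and Aoah-/- 3 (6.0 to 85.0), so no direction is read from it. Ascending limb-like cells led by injury genes, at 23.9, 18.5 and 28.1 CPM, had no call either. Collecting duct principal-like cells, at 7.46, 13.0 and 18.5 CPM (2.22%), and endothelial-like cells, at 4.59, 10.9 and 12.4 CPM (1.67%), had Bcl6 lowest in Aoah-/- 2, with no call.

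RNA of PTECs reaches droplets of other cells, and it differs in Bcl6 between the libraries. PTEC markers in the 14 other classes stood at a median of 10.2%, 12.7% and 11.7% of their level in PTEC-like cells, from 5.96% at the least to 54.0% in erythroid-like cells. The Bcl6 level that this RNA alone would give was exceeded in each of the 14 classes in each library, and exceeded more than 2-fold in 13, 12 and 12 of them. With that level taken away, T lymphocyte-like cells had 12.7, 14.3 and 22.7 CPM, intercalated-like cells 8.91, 5.80 and 16.8 CPM, and ascending limb-like cells 6.93, 9.30 and 19.6 CPM. The call was then lost in erythroid-like cells, at 1.30, 6.25 and 3.30 CPM, and 7 classes had one.

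**Figure D4:**
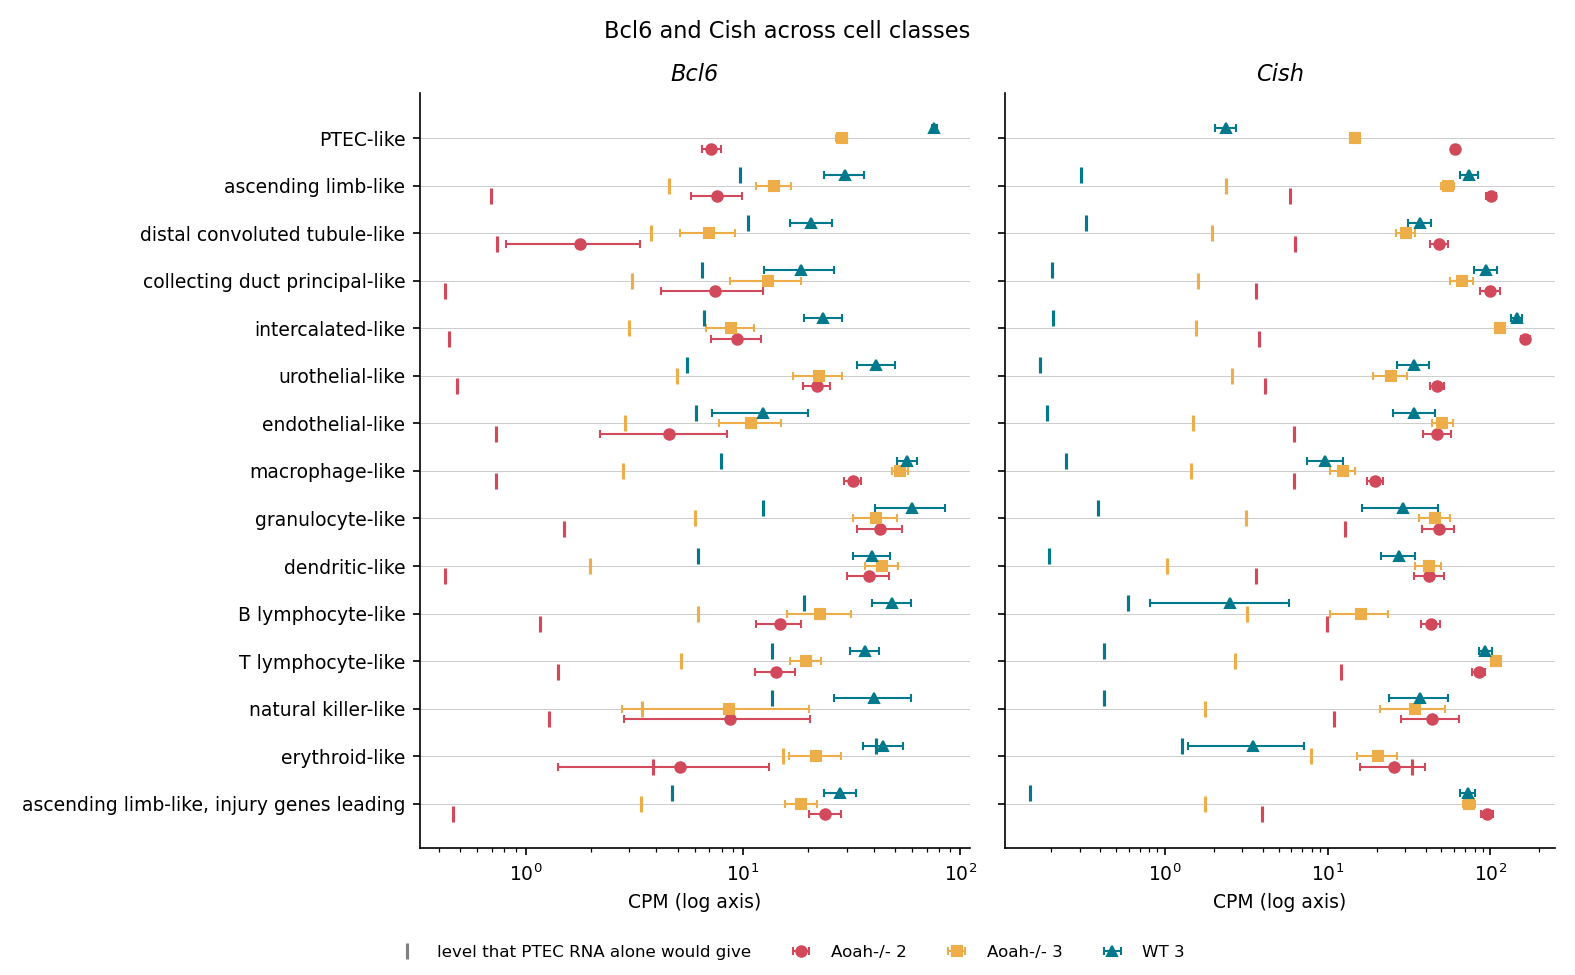
Bcl6 and Cish in 15 cell classes, in CPM with exact Poisson 95% intervals, with vertical ticks at the level that PTEC RNA alone would give in each library. WT 3 is highest in Bcl6 in all classes except dendritic-like cells, while in Cish WT 3 is far below both Aoah-/- libraries in PTEC-like, B lymphocyte-like and erythroid-like cells.

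The low Cish level of WT cells was a feature of few classes. WT ascending limb-like cells had 74.2 CPM of Cish and WT intercalated-like cells 145 CPM, against 2.37 CPM in WT PTEC-like cells. In the same order of libraries ascending limb-like cells had 101, 54.8 and 74.2 CPM, and intercalated-like cells 164, 115 and 145 CPM. In both, the WT library lay between the Aoah-/- libraries, unlike in PTEC-like cells. T lymphocyte-like cells, whose Cish is induced by interleukin 2, also showed no call, at 84.7, 108 and 93.4 CPM, where 1.55% of genes were called higher. Among the remaining classes without a call, Cish was at 48.5, 30.3 and 37.0 CPM in distal convoluted tubule-like (2.16% of genes called higher), 47.0, 24.4 and 33.8 CPM in urothelial-like (3.37%), 43.7, 34.3 and 37.1 CPM in natural killer-like (4.41%) and 95, 74.4 and 73.0 CPM in ascending limb-like cells led by injury genes (2.74%). Endothelial-like cells had 47.3, 50.8 and 34.2 CPM, and macrophage-like cells 19.6, 12.4 and 9.71 CPM, with no call.

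Over the 14 other classes Cish was called higher in 4. B lymphocyte-like cells had 43.2, 16.0 and 2.5 CPM from 211, 26 and 5 UMIs (4.8% of all genes called higher). Erythroid-like cells had 25.8, 20.4 and 3.47 CPM (14.8%), granulocyte-like cells 48.3, 45.7 and 28.9 CPM (16.3%) and dendritic-like cells 42.1, 41.8 and 27.3 CPM (4.02%). With the PTEC RNA taken away, B lymphocyte-like cells alone had a call, at 33.3, 12.7 and 1.90 CPM. Bcl6 and Cish thus stood in opposite order in B lymphocyte-like as in PTEC-like cells, while in ascending limb-like and intercalated-like cells Bcl6 was lower in both Aoah-/- libraries without a call in Cish.

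Socs2 was compared in 14 classes and called higher in 3. Macrophage-like cells had 11, 7.90 and 3.55 CPM from 177, 82 and 23 UMIs (2.27% of genes called higher). Granulocyte-like cells had 16.5, 6.52 and 0 CPM from 27, 12 and 0 UMIs, where 16.3% of genes were called higher. A count of 0 allows a WT level of up to 5.78 CPM (3 UMIs), close to that of Aoah-/- 3, so this call rests on the WT count of 0. In both, part of the level lay within what PTEC RNA would give, which was 5.9, 1.5 and 1.1 CPM and 12, 3.2 and 1.8 CPM. Erythroid-like cells had 32.2, 12.4 and 6.95 CPM (14.8% of genes called higher), against 30.9, 8.2 and 5.8 CPM from PTEC RNA. In the tubule beyond the PTECs Socs2 had no call, with 56.5, 26.9 and 31.5 CPM in ascending limb-like and 82.7, 41.7 and 52.1 CPM in distal convoluted tubule-like cells. There Aoah-/- 3 was the lowest and Aoah-/- 2 the highest library.

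Ghr was highest in PTEC-like cells among the named classes of at least 100 cells. In ascending limb-like cells it was at 60.1, 67.2 and 78.0 CPM and in distal convoluted tubule-like cells at 61.2, 60.6 and 77.2 CPM. It was called lower in B lymphocyte-like cells, at 39.5, 48.5 and 75.5 CPM, and in natural killer-like cells, at 31.5, 27.5 and 58.8 CPM. PTEC RNA alone would give 41.6, 61.9 and 72.6 CPM in the former and 46.0, 34.1 and 51.9 CPM in the latter, so these levels were close to or under those of free RNA and no change of Ghr is read from them. Within the PTEC-like cells the 12, 12 and 29 S3-like cells had 705, 712 and 1040 CPM of Ghr, above the other subclusters. An unnamed cluster led by Ccl2, Vcam1 and C3, with 181, 370 and 129 cells, scored best but weakly for PTEC markers. Its Ghr was at 114, 137 and 304 CPM, with both Aoah-/- libraries below WT. PTEC RNA alone would give 60.4, 71.9 and 77.5 CPM there. Bcl6 of this cluster was at 18.7, 25.6 and 68.2 CPM, Cish at 58.9, 27.7 and 27.0 CPM and Socs2 at 108, 47.4 and 58.5 CPM.

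Prlr had its highest level among the named classes in intercalated-like cells, which move acid and base in the collecting duct. It was at 53.1 CPM (47.5 to 59.1, 329 UMIs), 48.0 CPM (43.0 to 53.4, 333 UMIs) and 20.3 CPM (16.3 to 24.9, 90 UMIs), and was called higher, as were 1.9% of all genes there. The UMIs lay in 121, 136 and 47 of 404, 795 and 283 cells. The log2 ratio was 1.28 (SD 0.10), and, as in PTEC-like cells, the Aoah-/- libraries were close together and did not overlap with WT. The class holds 2 clusters in different proportions. In that led by Slc26a4, the transporter of the base-secreting type, Prlr was at 78.5, 71.4 and 36.0 CPM, and in that led by Slc4a1 and Aqp6, of the acid-secreting type, at 13.6, 12.7 and 8.63 CPM. The base-secreting cluster gave 222, 473 and 113 cells and the acid-secreting one 182, 322 and 170, so the ratio to WT was smaller within each cluster than over the class.

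In the few S3-like cells Prlr was at 197 CPM (24 UMIs), 237 CPM (41 UMIs) and 44.5 CPM (13 UMIs), with both Aoah-/- libraries above WT. In the unnamed cluster led by Ccl2, Vcam1 and C3 it went the other way, at 6.25, 6.47 and 27.0 CPM. Another unnamed cluster, led by Dcn, Igfbp6 and C3, had 1, 0 and 150 cells, so Prlr could not be compared there. Its WT cells held 462 Prlr UMIs, or 260 CPM. Over all barcodes of all cells the log2 ratio of Prlr was -0.07. That of Cish was 1.20 on the same footing.

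Stat5a was called in none of the 14 classes compared, and Stat5b was called higher in B lymphocyte-like cells only, at 30.3, 26.4 and 16.5 CPM, where 4.8% of all genes were called higher. Stat5a was highest in dendritic-like cells, at 44.9, 48.4 and 36.8 CPM, while Stat5b was at 52.3, 43.0 and 43.3 CPM in T lymphocyte-like and 39.7, 48.9 and 40.5 CPM in granulocyte-like cells. Stat5a of dendritic-like cells and Stat5b of these T lymphocyte-like and granulocyte-like cells were thus above the PTEC-like level of the same gene in each library.

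Among the named classes Igf1 RNA was highest in fibroblast-like, endothelial-like and macrophage-like cells in each library. It was near the limit of detection in PTEC-like cells, but was present at lower levels in ascending limb-like and distal convoluted tubule-like cells. Endothelial-like cells had 146, 161 and 91.7 CPM from 319, 559 and 126 UMIs, called higher as were 5.78% of genes there. Fibroblast-like cells had 155, 62.4 and 231 CPM over 33, 177 and 363 cells, too few in Aoah-/- 2 for a call. Macrophage-like cells had 41.3, 91.7 and 38.2 CPM with no call, but different clusters held most of the class in each library. In the cluster with the most macrophages of Aoah-/- 3, led by C1q genes and Ccl4, Igf1 was at 107, 129 and 58.7 CPM. In the cluster led by Saa3 and Fn1, which held the most macrophages of Aoah-/- 2, it was at 19.9, 38.8 and 48.0 CPM from 181, 4 and 31 UMIs. There Aoah-/- 2 was below WT, while the intervals of Aoah-/- 3 (10.6 to 99.3) and WT (32.6 to 68.1) overlapped. In that led by C1q and MHC class II genes, which held the most of WT, the levels were 50.003, 5.68 and 29.8 CPM from 42, 3 and 34 UMIs. Aoah-/- 2 thus had no common direction over these clusters, while Aoah-/- 3 rested on 4 and 3 UMIs in the latter 2.

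Igf1 also gave calls of both directions in classes where it was low. In ascending limb-like cells it was at 14.8, 13.0 and 3.43 CPM from 109, 109 and 11 UMIs, with 3.39% of genes called higher. In distal convoluted tubule-like cells it was at 5.72, 9.81 and 15.9 CPM from 29, 69 and 64 UMIs. In dendritic-like cells the WT level of 18.6 CPM rested on 49 UMIs in 13 cells, against 1 and 3 UMIs in the Aoah-/- libraries (1.66% called lower). These classes do not share a direction.

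**Figure D5:**
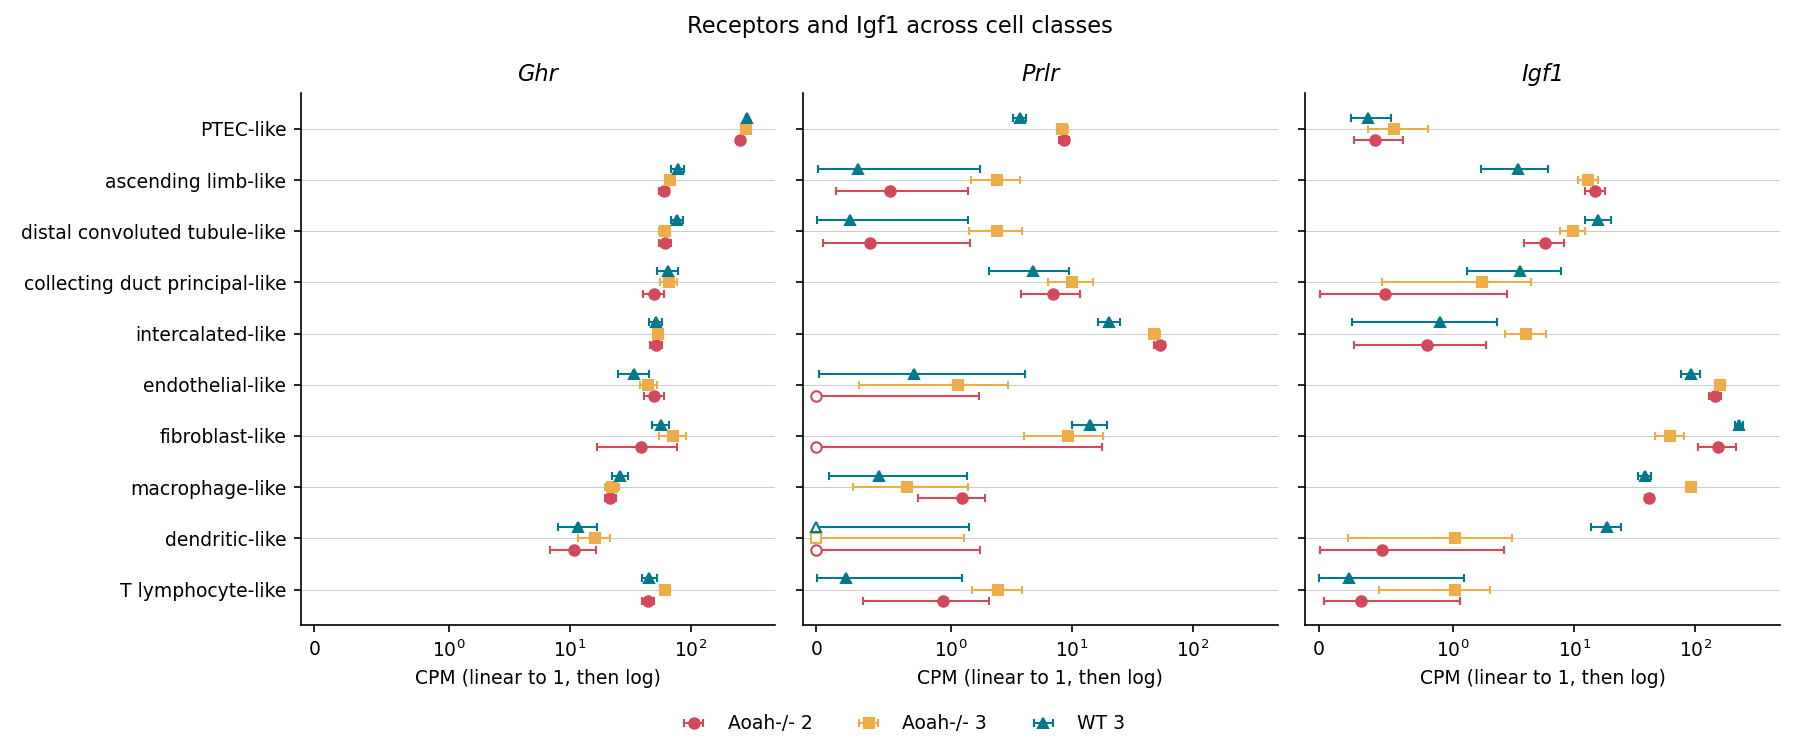
Ghr, Prlr and Igf1 in 10 cell classes, in CPM with exact Poisson 95% intervals on an axis that is linear up to 1 and logarithmic above it; open symbols mark 0 UMIs. Ghr is highest in PTEC-like cells in all 3 libraries, Prlr in intercalated-like cells with both Aoah-/- libraries above WT 3, and Igf1 of endothelial-like cells is at 146, 161 and 91.7 CPM.

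Genes were last ordered by how their level followed that of Bcl6 over 20 classes and PTEC-like subclusters in 3 libraries, that is 60 points that share mice, libraries and free RNA. Among 10629 genes the highest Pearson correlations of log2 levels included those of Gpr137b-ps (0.52), Milr1 (0.50), Smn1 (0.50) and Dnaja1 (0.49). None of these was strong, and Gpr137b-ps was low in PTEC-like cells at 3.16, 4.51 and 7.26 CPM. At the other end Socs2 (-0.55) and Cish (-0.53) ranked 10627th and 10626th, beside -0.04 for Ghr, 0.15 for Stat5a, 0.14 for Stat5b and -0.12 for Igf1. Prlr was below the level filter. The PTEC-like subclusters, whose Bcl6 difference chose the genes, gave 18 of these points. Over the 14 other classes alone, 42 points and 10812 genes, the correlation was -0.56 for Socs2 (rank 10628) and -0.40 for Cish (rank 9034). Cish was thus no longer among the last genes without the PTEC-like units, whereas Socs2 was. These classes still held PTEC RNA, which was not taken away here. The correlation also mixes differences between classes with those between libraries, so no relation outside PTECs is read from it. The comparison without the PTEC-like units was chosen after seeing the data.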

How the data were processed

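Kidney cell suspensions, from collagenase and DNase digestion, were captured with the 10x 3′ v2 chemistry. The UMI counts per gene and barcode were deposited by the authors as raw counts, on mm10. The submitters' processing notes name Cell Ranger 3.1.0, STAR and Seurat 4.2.0, whereas the matrix header names Cell Ranger 6.1.2. Barcodes reached down to 500 UMIs in Aoah-/- 2 and WT 3 but to 1672 in Aoah-/- 3.

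Barcodes with under 200 detected genes, or with over 50% of UMIs from mitochondrial genes, were dropped, which left median depths of 3357, 3678 and 3859 UMIs per cell. Clustering of the pooled libraries used scanpy 1.11.5 and igraph 0.11.9 (2000 variable genes, 50 components, 15 neighbours, Leiden resolution 1). The 8 members, the signal transducer, JAK-STAT inhibitor, IGF, STAT5 and BCL6 lists, the sex-linked genes and a separate list of 12 genes were left out. The FOXO, glucocorticoid, clock, androgen, injury and leukocyte lists were not left out. Pck1 of the glucocorticoid list was also a marker used to name PTEC-like cells. The resulting 37 clusters were named by fixed markers, with a score rule (mean log2 fold of at least 2, at least 3 markers) set after the data were seen. A total of 4260 cells stayed unnamed. Doublets were kept, with removal by score as an alternative. PTEC-like cells were clustered again at resolution 0.5.

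Levels are class sums of UMIs in each library, scaled to 1000000 (CPM). No test was run, because there was 1 WT library. A gene was compared where its mean was at least 5 CPM and it had at least 30 UMIs, ratios were log2 with 1 CPM added, and the call rule was 1.5-fold on the same side of WT in both Aoah-/- libraries. Poisson and Clopper-Pearson intervals (scipy 1.17.1) at 95% cover counting error only, and a count of 0 was given an upper limit of 3 counts. Cells were thinned to 1000 UMIs for shares. The level that PTEC RNA alone would give in a class was the summed PTEC marker level of the class, as a share of that in PTEC-like cells, times the PTEC level of the gene. The 1.5-fold call rule was tested on simulated counts, and the other steps were not tested in this way. Gene positions are from GENCODE M21 (GRCm38) and promoter windows from RefSeq.

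The members and lists were chosen with earlier results of these data known. Named were all 8 members, up to 4 called genes of each list with the largest log2 ratio, or the gene with the highest level where none was called, and the 5 genes most like Bcl6, except items that are not reported here. Groups came from the genotype labels.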

Additional observations from a re-analysis of the deposited data

Results flagged for a closer look

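Igf1 differed from WT in opposite directions in different cell classes. The log2 ratio of the mean Aoah-/- level to WT was 1.75 in ascending limb-like, 0.74 in endothelial-like and 2.60 in erythroid-like cells, where both Aoah-/- libraries were above WT. It was -0.95 in distal convoluted tubule-like and -3.48 in dendritic-like cells, where both were below. The differences between classes were not tested. The WT level rested on 11 UMIs in ascending limb-like cells, the erythroid-like levels on 2, 34 and 1 UMIs, and both Aoah-/- libraries had few UMIs in dendritic-like cells, whereas the endothelial-like levels rested on 319, 559 and 126 UMIs.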

How the results depend on the processing

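No paired analysis was possible because the groups share only replicate number 3 and there is 1 WT library. The results in PTEC-like cells were recomputed under 17 alternatives, of which 3 (equal weight of subclusters, without the subcluster led by Dusp1 and Jun, and all barcodes of all cells) were chosen after seeing the data, as was the level that PTEC RNA would give. The mean Aoah-/- level stayed below WT for Bcl6 and above it for Socs2 and Cish in all 17. The log2 ratios ran from -3.24 to -1.39, from 0.46 to 2.30 and from 1.195 to 4.198, in that order. Leaving out the filter on low values, which is among the 17, cannot change a ratio, and leaving out the added 1 CPM cannot change its sign. Size factors of 0.986, 0.9998 and 1.016 could change it little. All barcodes of all cells are not limited to PTEC-like cells. The Bcl6 difference chose the genes, so its persistence is a description. Aoah-/- 3 by itself was just under WT in Socs2 without the subcluster led by Dusp1 and Jun. Leaving out each Aoah-/- library moved Bcl6 between -3.24 and -1.39, Socs2 between 0.46 and 2.30 and Cish between 2.22 and 4.198, with 1 member called lower and 2 to 3 called higher. A 20% mitochondrial limit and equal weight of S1/S2-like and S3-like cells also gave 3 called higher. Over all barcodes of all cells Cish was at 1.195, 1 member was called higher, and Prlr reversed to -0.065. The cause was not tested. The number of all genes called lower went from 64 to between 36 (20% mitochondrial limit) and 285 (equal weight of S1/S2-like and S3-like cells), and that called higher from 213 to between 135 (equal weight of subclusters) and 763 (equal weight of segments). The 285 and 763 rest on 12, 12 and 29 S3-like cells. The difference in the share of cells with Bcl6, -4.68 percentage points at 1000 UMIs, was -2.25 at 500, -8.88 at 2000 and -19.1 without thinning. One WT library limits all comparisons, whatever the depth.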
